A study of Homo sapiens with 8 samples.

Results

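Expression of 10 genes of the ATF4 stress pathway and of amino acid supply was examined in T-ALL cells with knockdown of LDB1, out of 64252 genes in each count table. The genes were chosen by symbol for their place in the pathway and found by Ensembl identifier: the stress transcription factors ATF4, DDIT3 and ATF3, their targets TRIB3 and CHAC1, the asparagine synthetase ASNS, the serine and glycine enzymes PHGDH, PSAT1 and SHMT2, and the amino acid transporter SLC7A5. Earlier results of these data were known when the genes were chosen, so their counts beside those of all genes are descriptive. The study asked what LDB1, a cofactor that joins enhancers to promoters, does in T-ALL. RNA was sequenced from 6T-CEM cells, a T-ALL line derived from CCRF-CEM, and from J.gamma1 cells, a Jurkat derivative that lacks phospholipase C gamma 1. Each line carried either a control shRNA (shControl in the labels, sh-NC in the text of the study) or an shRNA against LDB1 (shLDB1, here sh-LDB1), and each of the 4 groups had 2 libraries. Virus and puromycin selection were shared by all groups, and no other agent, starvation or amino acid withdrawal is named for any of them. Which of the LDB1 shRNAs the sequenced cells carried is not named. Nothing says that the 2 libraries of a group came from separate cultures, so the p-values measure the spread between these libraries, which may be technical. Each line stands for itself, and the line, its count table and its handling cannot be told apart.

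ATF4 is a bZIP transcription factor at the centre of the integrated stress response. When a kinase phosphorylates the initiation factor eIF2, general translation slows while ATF4 mRNA is translated more, so that much of its control is not seen in its mRNA level. ATF4 then binds, often with a C/EBP partner, at genes for amino acid synthesis, import and tRNA charging, and at genes such as DDIT3 and CHAC1 that belong to the later, pro-death part of the response. In lymphoid leukaemia the pathway is best known for ASNS, since cells with little asparagine synthetase depend on asparagine from outside and are sensitive to asparaginase.

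Total counts per library lay between 26160492 and 30604977. Levels are given as CPM, counts scaled to a common library size with TMM factors. Differential expression was tested by the quasi-likelihood test of edgeR, with p-values adjusted over all genes tested after Benjamini and Hochberg, and a gene passed at an adjusted p under 0.05. LDB1, the targeted gene, had 107 and 111 CPM with sh-NC and 37.0 and 35.0 CPM with sh-LDB1 in 6T-CEM, and 60.1 and 58.8 CPM against 33.2 and 30.7 CPM in J.gamma1. Of 8 T-lineage markers, 7 were above 1 CPM in 6T-CEM, where CD2 was below, and all 8 in J.gamma1. Their summed level moved with the knockdown, from between 1461 and 1514 CPM to between 1884 and 1918 CPM in 6T-CEM, and from between 1885 and 1932 CPM to between 2323 and 2384 CPM in J.gamma1. The markers did not all go one way. CD3E went from 409.9 and 409.4 to 631 and 637 CPM in 6T-CEM and from 462 and 463 to 877 and 896 CPM in J.gamma1, but CD5 went from 82.0 and 87.4 to 54.9 and 61.3 CPM in 6T-CEM, and in J.gamma1 LCK went from 740.5 and 777 to 578 and 584 CPM and CD3D from 352 and 375 to 309 and 316 CPM. Myeloid, erythroid and fibroblast markers, each kind by itself, summed to at most 9.82 CPM in any library, with the erythroid gene HBB at 0 in all 8. COL1A1 had 4.31 and 4.15 CPM in J.gamma1 controls and 8.96 and 9.26 CPM after knockdown. The B-lineage markers summed to between 31.3 and 31.4 CPM with sh-NC and between 41.5 and 44.1 CPM with sh-LDB1 in 6T-CEM, and to between 69.7 and 71.7 CPM against 79.2 CPM in J.gamma1, with CD79A and CD79B above 1 CPM and MS4A1 below. The part of these markers in the results was not tested. RNA was measured in bulk, where fewer cells with a transcript and less of it per cell cannot be told apart.

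Of the 10 genes, all passed edgeR's filter on low counts in both lines. In LDB1-knockdown J.gamma1 cells 7 rose, 1 fell and 2 did not pass the test, in contrast to the control group. Among all 17215 genes tested there, 25.0% rose and 26.5% fell, 51.5% in all. In LDB1-knockdown 6T-CEM cells 2 rose, 3 fell and 5 did not pass, against 15.1% rising and 16.2% falling among 16059 genes, 31.3% in all. The median log2 fold change of the 10 genes was 0.43 in J.gamma1, where that of all genes was -0.00025, and 0.10 in 6T-CEM, where that of all genes was 0.0027. In J.gamma1 the sh-LDB1 libraries lay above both sh-NC libraries for 8 genes and below for 1, and the background of such separations was 37.2% and 38.6%. In 6T-CEM they lay above for 6 and below for 4, with a background of 32.1% and 33.2%. With a log2 fold change beyond 1 as a second condition, 2 of the 10 passed in J.gamma1 (ASNS and CHAC1), against 13.9% of all genes, and 1 in 6T-CEM (CHAC1), against 5.13%. DDIT3 and CHAC1 rose and ATF3 fell in both lines. ASNS, PHGDH, PSAT1 and SLC7A5 changed differently in the 2 lines by the test of the difference given further on.

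**Figure D1:**
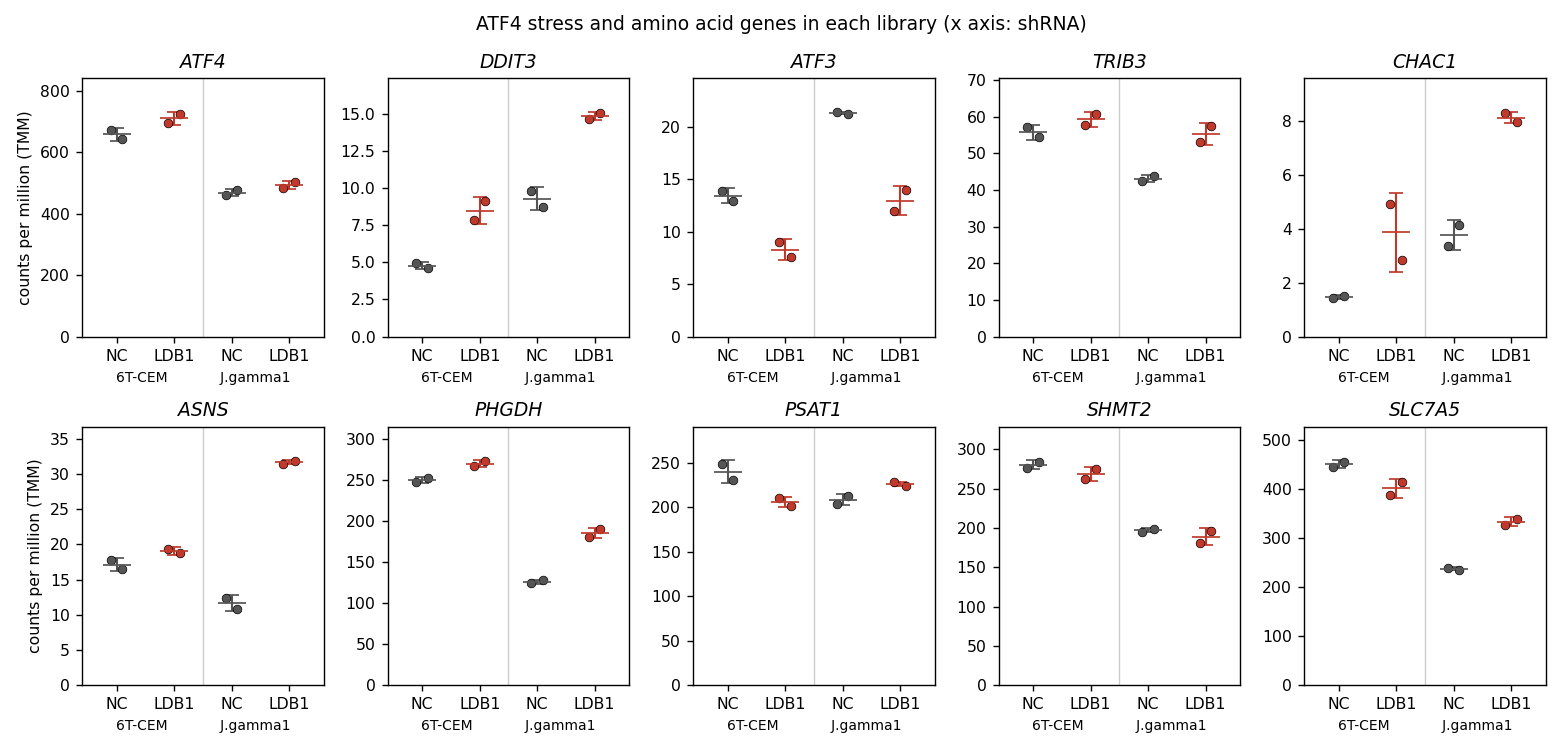
CPM of each of the 10 genes in every library, with the 4 groups on the x axis (sh-NC grey, sh-LDB1 red, 6T-CEM left and J.gamma1 right), points for the 2 libraries of a group, and lines for the mean and SD. Each y axis starts at 0. ASNS stands near 31 CPM in the J.gamma1 sh-LDB1 libraries and below 20 CPM in the other 6 libraries, while DDIT3 and CHAC1 are above their controls in both lines and ATF3 is below.

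The sequence through which ATF4 and C/EBP factors often bind together, the C/EBP-ATF response element, can be written TGATGNAA. It was searched on both strands of 300-base RefSeq promoter windows on GRCh38.p14, from 250 bases before a gene's start to 50 after. Of 9 members with a promoter listed, 3 hold it, against 4.46% of all 27305 genes in the table. The 3 stretches are shown because they include the gene that rose most in J.gamma1 and both a gene that rose and a gene that fell in both lines. Each is written 5′ to 3′ on the strand of its gene, with the 8 bases of the element, or of its reverse complement, in capitals.
ASNS: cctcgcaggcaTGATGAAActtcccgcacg
CHAC1: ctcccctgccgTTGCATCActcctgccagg
ATF3: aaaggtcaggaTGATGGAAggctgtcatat

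The ASNS stretch lies at chr7:97872458-97872487 on the minus strand, with the element starting 68 bases before the start site, in what is known as the nutrient-sensing element of this promoter. The CHAC1 stretch lies at chr15:40953251-40953280 on the plus strand, with the element on the opposite strand 209 bases before the start. The ATF3 stretch lies at chr1:212565205-212565234 on the plus strand, 191 bases before the start. Start sites here are those of RefSeq. They differ from the outermost ends of the GENCODE spans printed with the genes, within which the stretches of ASNS and CHAC1 lie. SHMT2 has no entry in the table. The palindromic CRE motif TGACGTCA, another site of ATF factors, was in 0 of the 9 windows and in 2.25% of all genes. A match is only a description of letters.

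A further 5 stretches are those of the genes that the naming rule took from the pathway lists in J.gamma1 and that hold the same element.
GARS1: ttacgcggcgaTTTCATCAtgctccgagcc
BCAT1: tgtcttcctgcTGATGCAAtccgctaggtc
SLC1A4: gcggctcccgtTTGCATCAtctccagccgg
CEBPG: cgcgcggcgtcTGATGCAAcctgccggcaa
CARS1: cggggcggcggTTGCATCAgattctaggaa

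They lie at chr7:30594834-30594863 (GARS1, plus strand), chr12:24949131-24949160 (BCAT1, minus), chr2:64989381-64989410 (SLC1A4, plus), chr19:33374060-33374089 (CEBPG, plus) and chr11:3057407-3057436 (CARS1, minus). In LDB1-knockdown J.gamma1 cells the first 3 of these genes rose and the last 2 fell. The element was in the windows of 7 of 16 cytosolic aminoacyl-tRNA synthetase genes with a promoter listed (43.8%) and of 5 of 9 amino acid transporter genes (55.6%). Of the 21 genes of all lists that hold it and were tested in J.gamma1, 13 rose and 3 fell, with a median log2 fold change of 0.25. Of the 76 listed genes without it, 38 rose and 16 fell, with a median of 0.16. In 6T-CEM 6 of 21 with the element rose and 4 fell, and 15 of 72 without it rose and 19 fell. Among all genes with a promoter tested in J.gamma1, 31.1% of those with the element and 27.1% of those without it rose, and 32.5% and 30.6% fell.

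ATF4 (ENSG00000128272, chromosome 22 from 39519695 to 39522683, plus strand; coordinates of genes are from GENCODE on GRCh38) had 673 and 643 CPM with sh-NC and 695 and 725 CPM with sh-LDB1 in 6T-CEM. In J.gamma1 it had 459 and 477 CPM with sh-NC and 483 and 502 CPM with sh-LDB1. The groups did not overlap in either line, by a narrow margin. Its log2 fold change, 0.11 for 6T-CEM (standard error 0.053) and 0.079 for J.gamma1 (standard error 0.044), was small, and neither passed edgeR's quasi-likelihood test (adjusted p = 0.116 and 0.156). The upper ends of the 95% intervals were 0.23 and 0.18.

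DDIT3, which encodes the pro-apoptotic factor CHOP (ENSG00000175197, chromosome 12 from 57516588 to 57521737, minus strand), had 4.92 and 4.60 CPM with sh-NC and 7.82 and 9.12 CPM with sh-LDB1 in 6T-CEM. In J.gamma1 it had 9.82 and 8.75 CPM with sh-NC and 14.7 and 15.1 CPM with sh-LDB1. Every sh-LDB1 library lay above both controls of its line, and the 6T-CEM knockdown libraries reached only the level of the J.gamma1 controls. The rise was 1.78-fold in 6T-CEM (log2 fold change 0.83, standard error 0.188, adjusted p = 0.00353 by edgeR's quasi-likelihood test) and 1.61-fold in J.gamma1 (0.68, standard error 0.130, adjusted p = 0.00120). Exons of DDIT3 share 355 bases with MARS1, the methionyl-tRNA synthetase gene, and 58 bases with MBD6, both on the opposite strand, and whether the counting used the strand is not stated. MBD6 rose in both lines as well, by 0.66 and 0.38 on the log2 scale, while MARS1, at between 175 and 223 CPM, differed by -0.11 in 6T-CEM (adjusted p = 0.124 by edgeR) and rose by 0.23 in J.gamma1. Reads from these genes and from DDIT3 cannot be told apart where they overlap.

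ATF3, a stress-induced bZIP factor (ENSG00000162772, chromosome 1 from 212565334 to 212620777, plus strand), went the other way. It had 13.9 and 12.9 CPM with sh-NC and 8.98 and 7.59 CPM with sh-LDB1 in 6T-CEM, and 21.4 and 21.2 CPM against 12.0 and 13.9 CPM in J.gamma1. In neither line did the groups overlap. It fell by 38.1% in 6T-CEM (log2 fold change -0.69, standard error 0.154, adjusted p = 0.00320 by edgeR's quasi-likelihood test) and by 39.0% in J.gamma1 (-0.71, standard error 0.113, adjusted p = 0.000347). DDIT3 and ATF3, stress factors that ATF4 is known to induce, thus moved in opposite directions in both lines.

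TRIB3, a pseudokinase that restrains ATF4 and DDIT3 (ENSG00000101255, chromosome 20 from 362835 to 397559, plus strand), had 57.1 and 54.3 CPM with sh-NC and 57.7 and 60.8 CPM with sh-LDB1 in 6T-CEM. In J.gamma1 it had 42.4 and 43.8 CPM against 53.2 and 57.5 CPM. The knockdown libraries of J.gamma1 thus came to the level of the 6T-CEM libraries. It rose 1.29-fold in J.gamma1 (log2 fold change 0.37, standard error 0.072, adjusted p = 0.00148 by edgeR's quasi-likelihood test) and did not pass in 6T-CEM, where the log2 fold change was 0.092 with a 95% interval from -0.066 to 0.25.

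CHAC1, which degrades glutathione and is a late target of ATF4 (ENSG00000128965, chromosome 15 from 40952962 to 40956512, plus strand), had the lowest level of the 10 genes. In 6T-CEM its counts were 37 and 41 in controls against 143 and 81 after knockdown, which is 1.42 and 1.52 CPM against 4.90 and 2.83 CPM. Counts in J.gamma1 were 107 and 131 (3.37 and 4.15 CPM) in controls against 232 and 235 (8.28 and 7.97 CPM). The groups did not overlap in either line, but the 2 knockdown libraries of 6T-CEM differed widely. CHAC1 rose 2.63-fold in 6T-CEM (log2 fold change 1.39, standard error 0.307, adjusted p = 0.00299 by edgeR's quasi-likelihood test) and 2.17-fold in J.gamma1 (1.12, standard error 0.187, adjusted p = 0.000514). In 6T-CEM the call was lost without sh-LDB1 replicate 1, where the log2 fold change was 0.95 (adjusted p = 0.0841 by edgeR), and without sh-NC replicate 1 (1.35, adjusted p = 0.0518).

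ASNS, asparagine synthetase (ENSG00000070669, chromosome 7 from 97851677 to 97872542, minus strand), had the largest rise of the 10 genes in J.gamma1. There it had 12.4 and 10.9 CPM with sh-NC and 31.4 and 31.8 CPM with sh-LDB1, in counts 395 and 343 against 880 and 938. In 6T-CEM it had 17.8 and 16.5 CPM with sh-NC and 19.4 and 18.7 CPM with sh-LDB1. The J.gamma1 controls were thus the lowest and the J.gamma1 knockdown libraries the highest of all 8 libraries, with 6T-CEM in between. ASNS rose 2.72-fold in J.gamma1 (log2 fold change 1.45, standard error 0.102, adjusted p = 9.61e-07 by edgeR's quasi-likelihood test). Leaving out any one library gave between 1.34 and 1.55 on that scale. For 6T-CEM the log2 fold change was 0.16 (standard error 0.117, adjusted p = 0.343), with a 95% interval from -0.093 to 0.41.

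PHGDH takes the first step from glycolysis to serine (ENSG00000092621, chromosome 1 from 119648411 to 119744218, plus strand). It had 124 and 128 CPM with sh-NC and 181 and 190.2 CPM with sh-LDB1 in J.gamma1, and 248 and 253 CPM against 267 and 273 CPM in 6T-CEM. The groups were apart in both lines, narrowly so in 6T-CEM. It rose 1.48-fold in J.gamma1 (log2 fold change 0.57, standard error 0.049, adjusted p = 4.79e-06 by edgeR's quasi-likelihood test), and its log2 fold change of 0.11 in 6T-CEM did not pass (standard error 0.053, adjusted p = 0.126).

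PSAT1, the aminotransferase of the second step (ENSG00000135069, chromosome 9 from 78297125 to 78330093, plus strand), had 249 and 231 CPM with sh-NC and 209.8 and 201 CPM with sh-LDB1 in 6T-CEM. In J.gamma1 it had 204 and 213 CPM with sh-NC and 228 and 224 CPM with sh-LDB1. The differences had opposite directions and were small in both lines. PSAT1 fell by 14.0% in 6T-CEM (log2 fold change -0.22, standard error 0.057, adjusted p = 0.00911 by edgeR's quasi-likelihood test) and rose 1.09-fold in J.gamma1 (0.12, standard error 0.046, adjusted p = 0.0446). The call in 6T-CEM was lost without sh-NC replicate 1 (-0.16, adjusted p = 0.124) and without sh-LDB1 replicate 2 (-0.19, adjusted p = 0.0674), and that in J.gamma1 without any one of the 4 libraries, at adjusted p between 0.0749 and 0.257 by edgeR.

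SHMT2, the mitochondrial enzyme that splits serine into glycine and a one-carbon unit (ENSG00000182199, chromosome 12 from 57229573 to 57234935, plus strand), had 276 and 284 CPM against 262 and 275 CPM in 6T-CEM. In J.gamma1 it had 195 and 199 CPM against 181 and 196 CPM. The J.gamma1 groups overlapped. Its log2 fold change was -0.058 in 6T-CEM (95% interval -0.17 to 0.058) and -0.055 in J.gamma1 (95% interval -0.17 to 0.058), and edgeR called neither (adjusted p = 0.461 and 0.398). Genes that share exon bases with SHMT2 or SLC7A5 had at most 4.31 CPM in any library.

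SLC7A5 imports large neutral amino acids such as leucine (ENSG00000103257, chromosome 16 from 87830023 to 87869507, minus strand). It had 239 and 235 CPM with sh-NC and 326 and 339 CPM with sh-LDB1 in J.gamma1, and 444 and 455 CPM against 387 and 415 CPM in 6T-CEM. The groups did not overlap in either line and lay in opposite directions. It rose 1.41-fold in J.gamma1 (log2 fold change 0.49, standard error 0.045, adjusted p = 6.60e-06 by edgeR's quasi-likelihood test) and fell by 10.6% in 6T-CEM (-0.16, standard error 0.055, adjusted p = 0.0355). The call in 6T-CEM was lost without sh-NC replicate 1 (adjusted p = 0.0936), sh-NC replicate 2 (0.181) or sh-LDB1 replicate 1 (0.233, log2 fold change -0.11) in the same test.

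**Figure D2:**
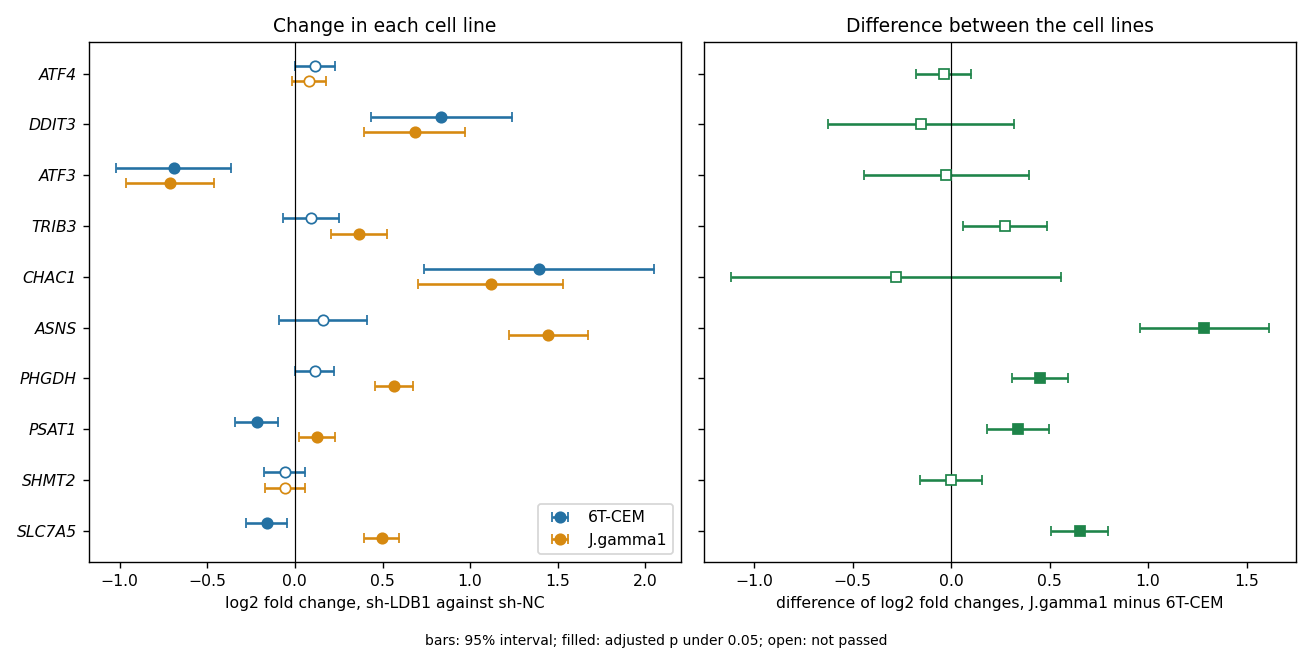
Left, log2 fold change of sh-LDB1 against sh-NC for each gene in 6T-CEM (blue) and J.gamma1 (orange). Right, the difference of these changes, J.gamma1 minus 6T-CEM. Bars are 95% intervals, and filled symbols passed at an adjusted p under 0.05. The intervals of the 2 lines overlap for ATF4, DDIT3, ATF3, TRIB3, CHAC1 and SHMT2, of which DDIT3, ATF3 and CHAC1 passed in both lines. ASNS has the largest difference, 1.29.

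The difference between the lines was tested as an interaction of line and shRNA in a fit of edgeR's quasi-likelihood model to all 8 libraries, where 24.4% of 18552 genes passed, 12.0% with the higher and 12.4% with the lower change in J.gamma1, and 5.86% differed by more than 1. Of the 10 genes 4 passed, each with the higher change in J.gamma1. The difference in log2 fold change was 1.29 for ASNS (standard error 0.150, adjusted p = 8.73e-05), 0.65 for SLC7A5 (standard error 0.066, adjusted p = 3.29e-05), 0.45 for PHGDH (standard error 0.065, adjusted p = 0.000391) and 0.34 for PSAT1 (standard error 0.071, adjusted p = 0.00442) in this model of edgeR. These 4 passed with any one of the 8 libraries left out. SHMT2, the other gene of amino acid supply, had a difference of 0.0013 (95% interval -0.16 to 0.16). TRIB3 had a difference of 0.27 (95% interval 0.059 to 0.49, adjusted p = 0.0625 in edgeR) and did not pass. For the stress factors no difference was detectable, with 95% intervals from -0.18 to 0.10 for ATF4, from -0.62 to 0.32 for DDIT3 and from -0.44 to 0.40 for ATF3. The interval of CHAC1, from -1.12 to 0.56, was the widest. LDB1 itself was lowered less in J.gamma1 (difference 0.70, adjusted p = 0.000237 by edgeR), and the part of this in the differences was not tested.

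The lines differed before the knockdown. Between the sh-NC groups all 10 genes passed edgeR's test in the same fit, where 65.7% of all genes did, 34.6% higher and 31.1% lower in J.gamma1. CHAC1 alone differed by more than 1 on the log2 scale, as did 32.4% of all genes. DDIT3 was higher in J.gamma1 by 0.96, ATF3 by 0.67 and CHAC1 by 1.35 on the log2 scale. The other 7 genes were lower there, with log2 differences of -0.99 for PHGDH, -0.92 for SLC7A5, -0.55 for ASNS, -0.51 for SHMT2, -0.49 for ATF4, -0.37 for TRIB3 and -0.20 for PSAT1. All 5 genes of amino acid supply were thus lower in J.gamma1 controls. The control groups also enter each line's own comparison, so the differences between controls and the differences between changes share libraries.

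Levels of different genes were compared as RPKM, the CPM divided by the length of the Ensembl canonical transcript in kilobases. With sh-NC in 6T-CEM the order was ATF4 (464 RPKM), PHGDH (134), SHMT2 (129.9), PSAT1 (109), SLC7A5 (98.7), TRIB3 (23.7), ASNS (7.18), ATF3 (6.92), DDIT3 (5.27) and CHAC1 (0.969 RPKM). The libraries of neighbouring genes overlapped in this order for ASNS and ATF3 alone. With sh-NC in J.gamma1 the order was ATF4 (330.0 RPKM), PSAT1 (94.4), SHMT2 (91.4), PHGDH (67.6), SLC7A5 (52.0), TRIB3 (18.3), ATF3 (11.0), DDIT3 (10.3), ASNS (4.89) and CHAC1 (2.47 RPKM), and no neighbours overlapped. With sh-LDB1 ASNS passed ATF3 in J.gamma1, at 13.3 RPKM against 6.68 RPKM, and DDIT3 stood above both at 16.5 RPKM. PHGDH reached 99.5 RPKM there, and its libraries overlapped those of PSAT1 at 102 RPKM. In 6T-CEM with sh-LDB1 DDIT3, at 9.38 RPKM, stood above ASNS at 7.99 and ATF3 at 4.27 RPKM. Among 17125 genes with a transcript length that passed the filter over all 8 libraries, ATF4 lay at percentile 99.1 of the level in 6T-CEM controls. CHAC1 lay at percentile 30.8 there. That set includes genes without counts in 6T-CEM, such as OAT and CBS, which raises these percentiles.

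The rest of the pathway was read in 8 lists of 108 further genes, which were also chosen with earlier results of these data known. In J.gamma1 104 were tested, of which 57 rose (54.8%) and 20 fell (19.2%), with a median log2 fold change of 0.23, where 25.0% of all genes rose and 26.5% fell. In 6T-CEM 100 were tested, of which 25 rose and 26 fell, with a median of 0.0018, where 15.1% of all genes rose and 16.2% fell. The test of the difference gave 43 genes with the higher change in J.gamma1 (41.3%, against 12.0% of all genes) and 15 with the lower (14.4%, against 12.4%). The counts of each list stand beside these same shares of all genes. From each list and line up to 2 genes with the largest and up to 2 with the smallest change are named. SLC3A2, EIF2AK4 and NFE2L2 were added to these after their values were seen. Of these, EIF2B1, OMA1, YARS1, SHMT1 and PYCR3 share between 15 and 538 exon bases with another expressed gene. For OMA1 this is DAB1, with 257 shared bases on the same strand and a mean count of 1288 against 498.8 for OMA1. Of 31 such calls in 6T-CEM 14 were kept with each library left out in turn, and of 32 in J.gamma1 28 were.

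**Figure D3:**
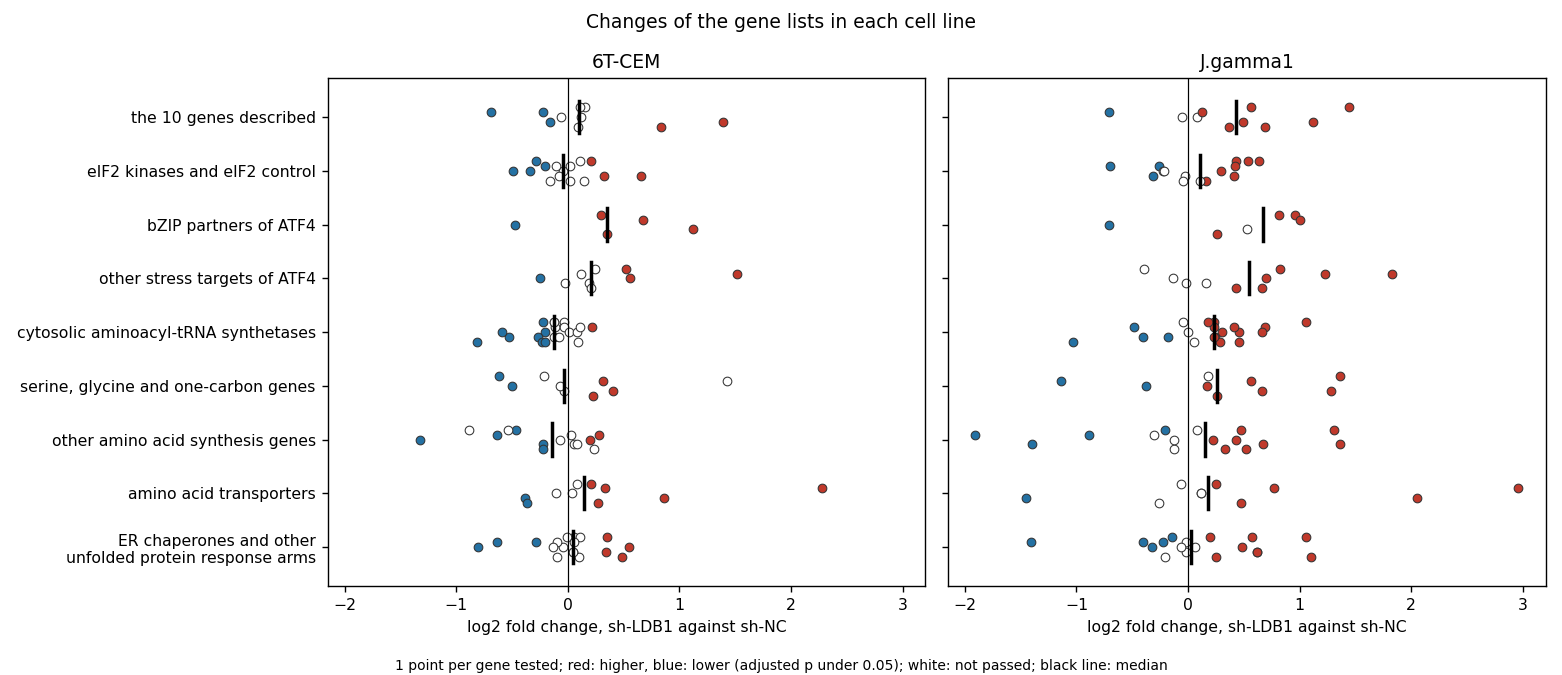
Log2 fold change of sh-LDB1 against sh-NC for each gene of the 10 described and of the 8 pathway lists, in 6T-CEM (left) and J.gamma1 (right), with 1 point per gene tested (red higher, blue lower, white not passed) and a black line at the median. The aminoacyl-tRNA synthetases have their median at -0.12 on the left and at 0.23 on the right.

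Among 15 genes that set eIF2 phosphorylation or recycle eIF2, 7 rose and 3 fell in J.gamma1 (46.7% and 20.0%, against 25.0% and 26.5% of all genes) and 3 rose and 4 fell in 6T-CEM (20.0% and 26.7%, against 15.1% and 16.2%). EIF2S1, the phosphorylated subunit itself, rose by 0.64 and EIF2B1 by 0.53 on the log2 scale in J.gamma1, and EIF2B2, another subunit of the exchange factor, fell by 0.70. PPP1R15A (GADD34), which ATF4 and DDIT3 induce and which reverses the phosphorylation, had 16.9 and 16.1 CPM with sh-NC and 25.3 and 26.6 CPM with sh-LDB1 in 6T-CEM, and 39.5 and 37.4 CPM against 29.1 and 32.4 CPM in J.gamma1. It rose by 0.65 in 6T-CEM (adjusted p = 0.000334 by edgeR) and fell by 0.32 in J.gamma1 (adjusted p = 0.00814), where the call was lost without sh-LDB1 replicate 1 (adjusted p = 0.0746). EIF2AK3, the kinase PERK, rose by 0.33 in 6T-CEM, and EIF2B3 and OMA1 fell by 0.34 and 0.49. Those 3 calls were each lost with 1 library left out: EIF2AK3 without sh-NC replicate 2 (adjusted p = 0.139 by edgeR) or sh-LDB1 replicate 1 (0.121), EIF2B3 without sh-NC replicate 1 (0.0594), and OMA1 without sh-NC replicate 2 (0.198) or sh-LDB1 replicate 2 (0.134). The amino acid sensor kinase EIF2AK4 (GCN2) had log2 fold changes of -0.16 and -0.044 and did not pass in either line.

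Of the bZIP proteins that pair with ATF4, 4 of 5 tested rose and 1 fell in 6T-CEM (80% and 20%, against 15.1% and 16.2% of all genes). In J.gamma1 4 of 6 rose and 1 fell (66.7% and 16.7%, against 25.0% and 26.5%). CEBPB had 23.5 and 22.5 CPM with sh-NC and 36.7 and 36.6 CPM with sh-LDB1 in 6T-CEM, and 11.1 and 13.0 CPM against 24.4 and 23.6 CPM in J.gamma1. It rose by 0.68 in 6T-CEM and by 1.00 in J.gamma1 on the log2 scale (adjusted p = 5.23e-05 and 2.91e-05 by edgeR). CEBPG, the partner with which ATF4 is known to act at amino acid genes, fell by 0.47 and 0.71 (adjusted p = 0.000263 and 1.33e-05 by edgeR). JUN rose by 1.13 in 6T-CEM and by 0.26 in J.gamma1, and ATF5 by 0.30 and 0.96. The call of JUN in J.gamma1 was lost without sh-LDB1 replicate 2 (adjusted p = 0.0667 by edgeR), and that of ATF5 in 6T-CEM without sh-NC replicate 1 (0.141) or sh-LDB1 replicate 2 (0.0834). ATF5 shares 565 exon bases with NUP62 on the opposite strand. NFE2L2, counted among the rising genes in both lines, shares 3509 exon bases with HNRNPA3, also on the opposite strand. The mean count of HNRNPA3 was 34860, against 2395 for NFE2L2, so the counts of NFE2L2 are uncertain.

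Other stress targets of ATF4 rose in 6 of 10 cases in J.gamma1, with none falling (60% and 0%, against 25.0% and 26.5% of all genes). In 6T-CEM they rose in 3 of 9 cases, with 1 falling (33.3% and 11.1%, against 15.1% and 16.2%). DDIT4, an inhibitor of mTORC1, had 52.1 and 57.2 CPM with sh-NC and 186 and 202 CPM with sh-LDB1 in J.gamma1. In 6T-CEM it had 42.6 and 41.5 CPM against 44.1 and 46.6 CPM. Its log2 fold change was 1.83 in J.gamma1 (standard error 0.063, adjusted p = 6.75e-09 by edgeR) and 0.11 in 6T-CEM (adjusted p = 0.310), a difference of 1.71. STC2, PMAIP1, which encodes the BH3-only protein NOXA, and XPOT also rose in J.gamma1, by 1.22, 0.66 and 0.43. SESN2 rose there too, by 0.82 (adjusted p = 2.52e-05 by edgeR), whereas VLDLR and EIF4EBP1 did not pass in J.gamma1 (adjusted p = 0.0872 and 0.284). In 6T-CEM SESN2 rose by 0.52, VLDLR by 0.56, and EIF4EBP1 fell by 0.24. These 3 calls were lost with 1 library left out: SESN2 without sh-NC replicate 1 (adjusted p = 0.105 by edgeR) or sh-LDB1 replicate 2 (0.0879), VLDLR without sh-NC replicate 2 (0.0565) or sh-LDB1 replicate 2 (0.0556), and EIF4EBP1 without sh-NC replicate 1 (0.320) or either sh-LDB1 library (0.141 and 0.0787).

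Cytosolic aminoacyl-tRNA synthetases, which charge tRNAs with amino acids, rose in 13 of 20 cases and fell in 4 in J.gamma1 (65% and 20%, against 25.0% and 26.5% of all genes). In 6T-CEM 1 rose and 8 fell (5% and 40%, against 15.1% and 16.2%). The median over the list was 0.23 for J.gamma1 and -0.12 for 6T-CEM on the log2 scale. In the test of the difference 13 of the 20 had the higher change in J.gamma1 and 2 the lower (65% and 10%, against 12.0% and 12.4% of all genes). GARS1, for glycine, rose in both lines, by 0.69 in J.gamma1 and by 0.22 in 6T-CEM, where the call was lost without sh-LDB1 replicate 2 (adjusted p = 0.0563 by edgeR). The 2 subunits of the phenylalanine enzyme parted in J.gamma1. FARSB went from 66.8 and 71.5 CPM to 145 and 142 CPM and rose by 1.06, whereas FARSA went from 237 and 243 CPM to 117.1 and 117.0 CPM and fell by 1.03. It fell by 0.81 in 6T-CEM too. CARS1 fell by 0.49 in J.gamma1. VARS1 and YARS1 fell by 0.59 and 0.20 in 6T-CEM, with the calls lost without sh-NC replicate 1 for VARS1 (adjusted p = 0.0597 by edgeR) and without sh-NC replicate 2 (0.0736) or sh-LDB1 replicate 1 (0.0692) for YARS1. In J.gamma1 both genes rose, VARS1 by 0.67 (adjusted p = 0.0324 by edgeR) and YARS1 by 0.45 (adjusted p = 2.17e-05). The VARS1 call was lost there without sh-NC replicate 1 (adjusted p = 0.0757 by edgeR, log2 fold change 0.35) or either sh-LDB1 library (0.167 and 0.181).

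Beside PHGDH, PSAT1 and SHMT2, the serine, glycine and one-carbon list had 6 of 9 tested genes rising and 2 falling in J.gamma1 (66.7% and 22.2%, against 25.0% and 26.5% of all genes). In 6T-CEM 3 rose and 2 fell (33.3% and 22.2%, against 15.1% and 16.2%). PSPH, the phosphatase that completes serine synthesis, had 32.9 and 28.8 CPM with sh-NC and 40.8 and 36.0 CPM with sh-LDB1 in 6T-CEM, and 27.7 and 26.6 CPM against 38.8 and 41.0 CPM in J.gamma1. It rose by 0.56 in J.gamma1, and its rise of 0.32 in 6T-CEM was lost without sh-NC replicate 2 (adjusted p = 0.197 by edgeR) or sh-LDB1 replicate 1 (0.174). The mitochondrial folate carrier SLC25A32 rose by 0.40 in 6T-CEM and 1.28 in J.gamma1, where the call was lost without sh-LDB1 replicate 2 (adjusted p = 0.0504 by edgeR). In the fit to all 8 libraries the call in 6T-CEM was lost too (adjusted p = 0.0649 by edgeR). SLC25A32 shares 406 exon bases with DCAF13. MTHFD2L rose by 1.37 in J.gamma1. The glycine cleavage gene GLDC fell by 1.14 and the cytosolic SHMT1 by 0.38 there, whereas GCSH and MTHFD1 fell by 0.62 and 0.50 in 6T-CEM. MTHFD1 rose by 0.17 in J.gamma1, a call lost without sh-NC replicate 1 (adjusted p = 0.0790 by edgeR).

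In the list of other amino acid synthesis genes 8 of 16 rose and 4 fell in J.gamma1 (50% and 25%, against 25.0% and 26.5% of all genes). In 6T-CEM 2 of 14 rose and 5 fell (14.3% and 35.7%, against 15.1% and 16.2%). GLUL, glutamine synthetase, fell in both lines, from 456 and 476 CPM to 177 and 174 CPM in J.gamma1 and from 5.04 and 5.94 CPM to 1.58 and 2.80 CPM in 6T-CEM. These are log2 fold changes of -1.40 (adjusted p = 4.27e-09 by edgeR) and -1.32 (adjusted p = 0.00236). GPT2, the mitochondrial alanine aminotransferase, went from 38.48 and 38.47 CPM to 9.78 and 10.7 CPM in J.gamma1 and fell by 1.91. BCAT1, the cytosolic aminotransferase of branched-chain amino acids, went from 84.3 and 79.0 CPM to 208 and 211 CPM and rose by 1.36, whereas it fell by 0.22 in 6T-CEM, a call lost without either sh-NC library (adjusted p = 0.118 and 0.212 by edgeR) or sh-LDB1 replicate 2 (0.233, log2 fold change -0.12). The proline enzyme PYCR3 rose by 1.31 in J.gamma1. In 6T-CEM PYCR1 rose by 0.28 and ASL fell by 0.63. Both calls were lost with 1 library left out, for PYCR1 with any one of the 4 (adjusted p of at most 0.163 by edgeR), and for ASL without sh-NC replicate 1 (0.177) or sh-LDB1 replicate 1 (0.0777).

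Amino acid transporters other than SLC7A5 rose in 5 of 10 cases in each line, with 1 falling in J.gamma1 and 2 in 6T-CEM. These shares are 50% and 10% in J.gamma1, against 25.0% and 26.5% of all genes, and 50% and 20% in 6T-CEM, against 15.1% and 16.2%. SLC3A2, the heavy chain with which SLC7A5 works, had 184 and 179.9 CPM with sh-NC and 218.50 and 218.47 CPM with sh-LDB1 in 6T-CEM, and 95.1 and 98.5 CPM against 130.0 and 139 CPM in J.gamma1. Unlike its partner it rose in both lines, by 0.27 and 0.48 (adjusted p = 0.00151 and 3.06e-05 by edgeR). SLC7A11, the cystine importer, had 19.4 and 16.5 CPM against 37.5 and 27.6 CPM in 6T-CEM, and 7.02 and 7.07 CPM against 29.5 and 28.8 CPM in J.gamma1. It rose by 0.86 and 2.05, and the call in 6T-CEM was lost without sh-NC replicate 2 (adjusted p = 0.0545 by edgeR). Counts of the glycine transporter SLC6A9 were 26 and 42 in controls against 174 and 186 after knockdown in 6T-CEM, and 17 and 30 against 171 and 161 in J.gamma1. Its log2 fold changes of 2.28 and 2.96 were the largest of the named transporters, and it shares 413 exon bases with CCDC24. SLC38A2, which takes up neutral amino acids, fell by 0.38 in 6T-CEM and by 1.45 in J.gamma1, from 689 and 649 CPM to 247 and 240.5 CPM. SLC1A4 rose by 0.25 in J.gamma1, a call that was lost without sh-NC replicate 2 (adjusted p = 0.140 by edgeR) or either sh-LDB1 library (0.0724 and 0.0519). SLC7A6 fell by 0.37 in 6T-CEM, which was lost without sh-NC replicate 1 (0.0614) or 2 (0.130), and shares 3372 exon bases with SLC7A6OS.

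Of 18 chaperones and sensors of the other arms of the unfolded protein response 8 rose and 5 fell in J.gamma1 (44.4% and 27.8%, against 25.0% and 26.5% of all genes), and 4 rose and 3 fell in 6T-CEM (22.2% and 16.7%, against 15.1% and 16.2%). The medians were 0.023 and 0.046. HSPA5 (BiP), the main chaperone of the endoplasmic reticulum, had 234 and 231 CPM with sh-NC and 477 and 487 CPM with sh-LDB1 in J.gamma1, which is 1.06 on the log2 scale. In 6T-CEM it had 462 and 451 CPM against 436 and 469 CPM, with overlapping groups and a log2 fold change of -0.0076 that did not pass. HSP90B1 rose by 1.11 in J.gamma1 and by 0.49 in 6T-CEM, and the calcium-binding chaperone CALR fell by 1.41 and 0.63. XBP1 fell by 0.80 in 6T-CEM, EDEM1 fell by 0.40 in J.gamma1, and the sensor ERN1 rose by 0.55 in 6T-CEM, where the call was lost without sh-NC replicate 1 (adjusted p = 0.0665 by edgeR) or sh-LDB1 replicate 2 (0.0677). ERN1 fell by 0.32 in J.gamma1.

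The genes whose pattern over the 8 libraries was most like that of ASNS were PTPN22, STAG3L5P-PVRIG2P-PILRB, SLC30A1, CBX6 and GOLGA8B, out of 12675 genes with a symbol and a mean of at least 50 normalized counts. Likeness was the root mean square difference of log2 CPM centred on each gene's mean, 0.072 for PTPN22 and 0.142 for GOLGA8B. For DDIT3 they were C16orf54 (0.087), LPP (0.088), LRP12, MYEF2 and C2orf42 (0.130). None of these 10 genes belongs to the pathway lists.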

How the data were processed

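RNA sequencing of 8 libraries, 2 in each of 4 groups, was used. The authors aligned the reads to hg38 with HISAT2 2.2.0, quantified genes with StringTie, and deposited whole-number counts per gene in 2 tables, 1 per line, without normalization. The annotation release, the use of strand and the treatment of reads matching several genes are not given in the sources used here. Of the 64252 genes listed, 56105 (87.3%) were matched to a symbol. The members, pathway lists, rules and tests were chosen with earlier results of these data known.

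Each line was fitted separately with edgeR 4.0.16 in R 4.3.3 (robust quasi-likelihood fit, TMM factors, filterByExpr, Benjamini-Hochberg adjustment over all genes tested). Replicates varied by 9.68% (6T-CEM) and 9.16% (J.gamma1) as edgeR's biological coefficient of variation. Differences between lines and between controls came from 1 fit to all 8 libraries. Standard errors were derived from the F statistic. A second threshold asked for a log2 fold change beyond 1. CPM used TMM factors over all 8 libraries, and likeness a prior count of 0.5. Named are all 10 members, LDB1, and from each of the 8 lists and in each line up to 2 genes with the largest and 2 with the smallest log2 fold change among those that passed and averaged 50 or more normalized counts, plus the 5 genes most like ASNS and like DDIT3. Alternatives were DESeq2 1.42.0, its size factors in edgeR, other filters, a fit to all 8 libraries, the replicate number as a block, and leaving out each library. Single genes of the lists are counted with them but not reported here by name. The steps were tested on simulated counts. The share of false calls there was above the nominal level in each comparison, and with edgeR most so in 6T-CEM. Far fewer genes were changed in the simulation than were called in these data, so that share does not carry over to these calls. Promoter sequences are from RefSeq (GRCh38.p14), and 9 of 10 members matched. Figures were drawn with matplotlib 3.10.9 in Python 3.11.15.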

Additional observations from a re-analysis of the deposited data

Results flagged for a closer look

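The change after LDB1 knockdown differed between J.gamma1 and 6T-CEM for 39 of the 60 genes named, at adjusted p between 4.20e-07 and 0.0444 by edgeR's quasi-likelihood test of the interaction over all 8 libraries. Of all 18552 genes 24.4% passed this test. Beyond the 10 genes and LDB1, the genes were named because they passed in a line of these same libraries, at the ends of their lists. That selection favours passing here, so no share of the pathway can be read from the count. With 2 libraries per group no library could be set apart from its group. Values are differences in log2 fold change, J.gamma1 minus 6T-CEM. Among the 10 genes described they were 1.29 for ASNS, 0.65 for SLC7A5, 0.45 for PHGDH and 0.34 for PSAT1, and for LDB1 the difference was 0.70.

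The stress targets and partners of ATF4 differed by 1.71 for DDIT4, 0.66 for ATF5, 0.45 for XPOT and 0.45 for PMAIP1, and by -0.40 for VLDLR and -0.87 for JUN. The synthetases differed by 1.26 for VARS1, 1.19 for FARSB, 0.65 for YARS1, 0.46 for GARS1, -0.22 for FARSA and -0.46 for CARS1. In the amino acid and one-carbon lists the differences were 1.58 for BCAT1, 1.58 for MTHFD2L, 1.22 for PYCR3, 0.87 for SLC25A32, 0.80 for GCSH, 0.67 for MTHFD1, 0.39 for PYCR1, -0.31 for SHMT1, -1.37 for GPT2 and -2.57 for GLDC, which had at most 38 counts in any 6T-CEM library. The transporters SLC7A11 and SLC38A2 differed by 1.19 and -1.07. The chaperone and sensor genes differed by 1.06 for HSPA5, 0.74 for XBP1, 0.61 for HSP90B1, -0.31 for EDEM1, -0.78 for CALR and -0.87 for ERN1, and the eIF2 genes by 0.52 for EIF2S1, 0.32 for EIF2B1, -0.60 for EIF2B2 and -0.97 for PPP1R15A.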

How the results depend on the processing

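With the added threshold of a log2 fold change beyond 1, 1 of the 10 genes was counted in 6T-CEM (CHAC1), 2 in J.gamma1 (CHAC1 and ASNS), 1 for the difference between lines (ASNS) and 1 between controls (CHAC1), 4 and 18 of the other pathway genes in 6T-CEM and J.gamma1, and 824 and 2386 of all genes. With 1 library left out the 6T-CEM counts were 2 to 4 of the 10 genes, 2 without sh-NC replicate 1 and 3 without sh-LDB1 replicate 1, 32 (without sh-NC replicate 2) to 40 of the other pathway genes, and 3234 (without sh-NC replicate 1) to 3875 of all genes. In J.gamma1 7 of the 10 genes passed in each such fit. A lone library left in a group is assumed there to vary like the other groups. PSAT1 in J.gamma1 also did not pass with no filter (adjusted p = 0.0830), with DESeq2 (0.0593) or in the fit to all 8 libraries (0.0779), nor SLC7A5 in 6T-CEM with no filter (0.0923), and the difference for TRIB3 passed with a filter at a mean of 50 counts (0.0438). Signs turned only for values that never passed. The log2 fold change of SHMT2 in J.gamma1 lay between -0.11 and 0.0022 with 1 library left out. The differences between lines lay between -0.060 and 0.055 for SHMT2, -0.068 and 0.0033 for ATF4, -0.14 and 0.11 for ATF3 and -0.61 and 0.18 for CHAC1. The SHMT2 difference was -0.0041 with size factors, -0.0054 with no filter and -0.0040 with DESeq2. The causes were not tested.

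Replicate numbers did not pair the libraries (correlation of deviations from group means -0.0093 in 6T-CEM and -0.0017 in J.gamma1 over 18552 genes). With the replicate number as a block, 5 of the 10 genes passed in 6T-CEM, 8 in J.gamma1 and 4 for the difference, and of the other pathway genes 51 and 79, against 51 and 77 without it. At this depth CHAC1, with 37 to 143 counts in 6T-CEM, had the widest intervals of the 10 genes. Of the 5 named pathway genes that passed with the opposite sign in the other line, VARS1 in J.gamma1 and BCAT1 in 6T-CEM also did not pass there with no filter (adjusted p = 0.0707 and 0.0908 by edgeR), in alternatives chosen after seeing the data.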

Other observations

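Some genes of the pathway lists were at or near 0. OAT, which interconverts ornithine and glutamate semialdehyde in mitochondria, and CBS, the first enzyme from homocysteine to cysteine, had 0 counts in each of the 4 6T-CEM libraries. A count of 0 allows up to 3 counts, or between 0.103 and 0.115 CPM in these libraries. In J.gamma1 the counts of OAT were 1253 and 1276 in controls against 982 and 1120 after knockdown, and those of CBS 697 and 673 against 796 and 925. CBS has a near-identical copy, so its counts are uncertain. CBS rose by 0.47 in J.gamma1 on the log2 scale (adjusted p = 0.00109 by edgeR), and OAT had a log2 fold change of -0.12 that did not pass (adjusted p = 0.205). Both were chosen after their values were seen.

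The secreted stress hormones FGF21 and GDF15, late products of the ATF4 pathway in many tissues, had at most 3 counts in any library. NUPR1 had at most 4 counts. STC2, another secreted target, had 0 counts in both 6T-CEM controls and 4 and 2 counts in the knockdown libraries, against 231 and 199 and 416 and 493 counts in J.gamma1. FOS had 0 counts in all 6T-CEM libraries and between 31 and 49 in J.gamma1.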
